A study of Mus musculus with 2 samples.

Results

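The ion-pumping ATPases are membrane proteins that spend ATP to move sodium, calcium or protons against their gradients. The 43 genes described here are the protein-coding genes whose symbols begin with Atp1a, Atp1b, Atp2a, Atp2b or Atp2c and a digit, or with Atp6v0, Atp6v1 or Atp6ap. They are 43 of 21474 protein-coding genes in the tables, and comprise 8 sodium pump genes, 9 calcium pump genes and 26 genes of the vacuolar proton pump and its accessory proteins. Membership rests on the symbol alone. Atp6v1fnb, a neighbour of Atp6v1f, and Atp6ap1l, a gene named for its likeness to Atp6ap1, therefore count as members without being known pump subunits.

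RNA was sequenced from 2 areas of layer 5 of the cerebral cortex of wild-type male C57Bl6 mice (strain B6NCrl in the labels) aged 8 months. Each area measured 8000 square microns, was isolated by laser capture and was recorded as 50 cells. Both libraries form 1 group with no treatment and no control, and they are called replicate 1 and replicate 2 after the labels. The labels give the same donor for both, so each SD below is the spread between 2 areas that may share 1 animal, and no test across animals could be made.

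The sodium pump pairs a catalytic alpha subunit with a beta subunit that brings it to the cell surface, and it restores the ion gradients that neurons spend on firing. Calcium is removed from the cytosol by plasma membrane pumps (Atp2b genes), by pumps of the endoplasmic reticulum (Atp2a genes) and by pumps of the Golgi (Atp2c genes). The vacuolar proton pump joins a cytosolic V1 sector that splits ATP to a membrane V0 sector that carries protons, and it acidifies lysosomes and synaptic vesicles.

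Replicate 1 held 26059117 expected counts and replicate 2 held 28276843. An expected count is an estimated number of reads, and TPM scales it for transcript length and library size. Spike-in RNA took 7.19% of the counts in replicate 1 and 7.94% in replicate 2. All 5 layer 5 genes looked up, a list added after the data were seen, reached 1 TPM in both areas, and Pcp4 among them had 2922 TPM in replicate 1 and 3599 TPM in replicate 2. The areas differed in RNA of cell type markers. The 10 microglial markers summed to 331 TPM in replicate 1 and 113 TPM in replicate 2, while 10 oligodendrocyte markers summed to 587 and 1147 TPM in the same order. The 5 erythrocyte markers summed to 16.0 TPM in replicate 1 and 586 TPM in replicate 2, with 1 of them higher in replicate 1. None of the 6 meningeal fibroblast markers and none of the 6 ependymal and choroid markers reached 1 TPM in both areas, and 4 of each list had 0 counts in both.

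Most pump genes were transcribed in layer 5, and some stood among its most abundant messages. A total of 31 of the 43 members reached 1 TPM in both areas, where 51.5% of all protein-coding genes did. These were 6 sodium, 6 calcium and 19 proton pump genes. The members together made up 0.963% of all TPM in replicate 1 and 1.11% in replicate 2.

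The proton pump took the largest part of that sum, at 7454 TPM in replicate 1 and 8780 TPM in replicate 2. The sodium pump genes summed to 1696 TPM in replicate 1 and 1876 TPM in replicate 2. The calcium pump genes summed to 482 TPM in replicate 1 and 465 TPM in replicate 2. The order of the 3 sums was the same in both areas, with proton above sodium and sodium above calcium, but the classes hold different numbers of genes.

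**Figure D1:**
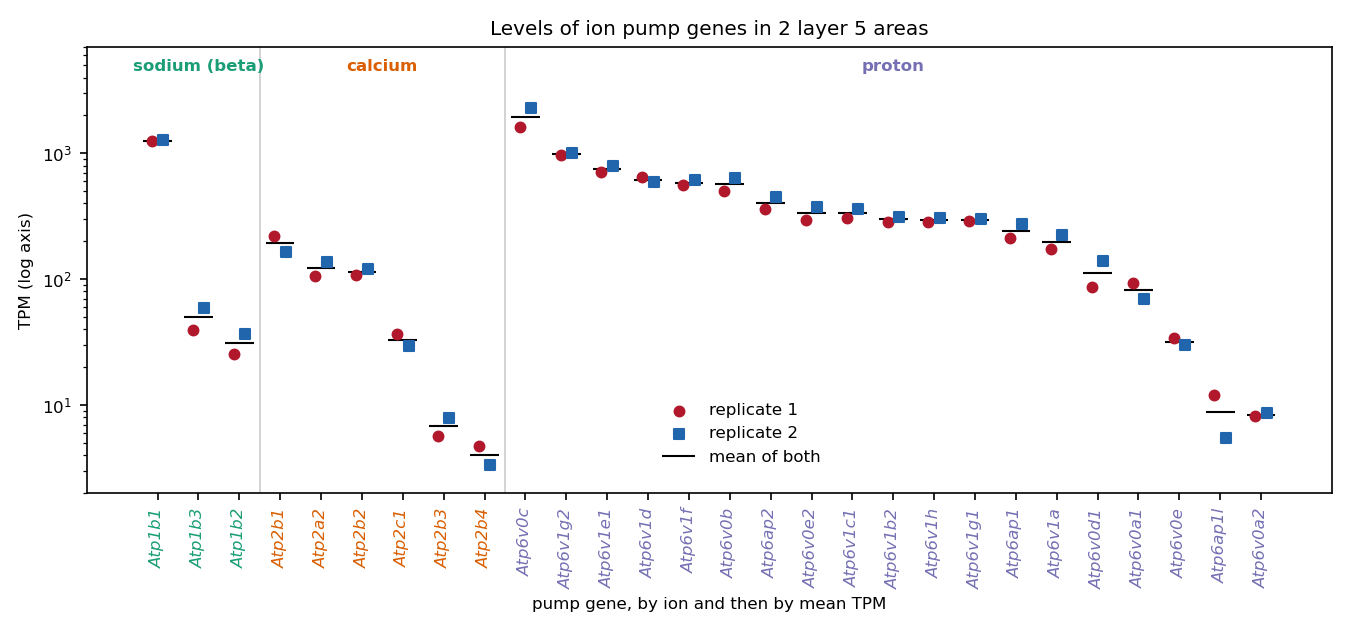
TPM on a log axis of pump genes at 1 TPM or more in both areas (beta subunits alone for sodium), grouped by the ion moved and ordered by mean. Circles are replicate 1, squares are replicate 2 and black lines are their mean; Atp6v0c at 1615 and 2280 TPM is the highest and Atp2b4 at 4.74 and 3.32 TPM the lowest.

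Atp6v0c, Atp1b1 and Atp6v1g2 headed the order of levels. Atp6v0c, the ring-forming proteolipid through which protons pass, ranked 36 among all protein-coding genes by mean TPM. Atp1b1, a sodium pump beta subunit, ranked 58. Atp6v1g2, a V1 stalk subunit known from neurons, ranked 81. Of 30 neighbouring pairs in the order of the 31 detected members, 11 had ranges over both areas that did not overlap between the genes. Most neighbours were therefore not separated by that rule, which does not compare the genes within each area. Some pairs with overlapping ranges kept their order in both areas. Atp6ap1, for instance, was above Atp6v1a in each. The top 4 were separated from each other and from the gene below them, while Atp6v0e2, Atp6v1c1, Atp6v1b2, Atp6v1h and Atp6v1g1 followed each other with ranges that overlapped.

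Among the sodium pump beta subunits, Atp1b1 (ENSMUSG00000026576.8, chromosome 1, 164437109 to 164458355, minus strand, GRCm38 as are all positions here) was dominant. It had 1243 TPM in replicate 1 and 1267 TPM in replicate 2, which is 94.0% ± 1.47 (SD, n = 2) of the beta subunit TPM. Atp1b3 had 39.83 TPM in replicate 1 and 59.51 TPM in replicate 2. Atp1b2, the form known from glia, had 25.28 TPM in replicate 1 and 36.65 TPM in replicate 2.

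The ranges of Atp1b3 and Atp1b2 lay close together without overlapping, and both lay far below Atp1b1. Atp1b4, known from muscle in placental mammals, had 0 counts in both areas.

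The plasma membrane calcium pumps were represented mainly by Atp2b1 and Atp2b2. Atp2b1, the form found in most cells (ENSMUSG00000019943.9, chromosome 10, 98914406 to 99026143, plus strand), had 219.74 TPM in replicate 1 and 165.58 TPM in replicate 2. Atp2b2, a fast form known from neurons and hair cells, had 108.02 TPM in replicate 1 and 120.34 TPM in replicate 2. Atp2b1 was the higher of the pair in both areas, at 60.3% ± 6.56 (SD, n = 2) of the family's TPM, and Atp2b2 made up 36.2% ± 6.04.

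Atp2b3 had 5.64 TPM in replicate 1 and 7.97 TPM in replicate 2. Atp2b4 had 4.74 TPM in replicate 1 and 3.32 TPM in replicate 2. Both were present in each area but low beside Atp2b1 and Atp2b2.

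Of the calcium pumps of internal stores, Atp2a2 and Atp2c1 were the forms in use. Atp2a2, the reticulum pump of most tissues, had 106.41 TPM in replicate 1 and 138.10 TPM in replicate 2. Atp2c1, the Golgi pump that also carries manganese, had 36.90 TPM in replicate 1 and 29.33 TPM in replicate 2. Neither gene had a close second. Atp2a1, the skeletal muscle form, had 0 counts in both areas, Atp2a3 had 16 counts in replicate 1 and 0 in replicate 2, and Atp2c2 had 3 and 0. Plasma membrane pumps exceeded reticulum pumps in summed TPM by 3.17 times in replicate 1 and 2.15 times in replicate 2.

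The V0 sector was led by its proteolipids. Atp6v0c (ENSMUSG00000024121.9, chromosome 17, 24163866 to 24169702, minus strand) had 1615 TPM in replicate 1 and 2280 TPM in replicate 2. Atp6v0b, the second proteolipid, had 500.08 TPM in replicate 1 and 640.12 TPM in replicate 2. The ranges of these genes did not overlap, and Atp6v0c made up 77.2% ± 1.22 (SD, n = 2) of their sum.

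The value of Atp6v0c is uncertain to the extent that reads were divided with a processed pseudogene, a gene copy made from mature RNA. Atp6v0c-ps2 on chromosome 6 differs from the Atp6v0c coding sequence at 1 of 465 bases compared, an identity of 99.8%. The 41 bases around that difference, positions 91 to 131 of the coding sequence in GENCODE M21 transcripts, show how little a short read has to tell the copies apart, with the differing base in capitals:
Atp6v0c: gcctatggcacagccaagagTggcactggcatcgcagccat
Atp6v0c-ps2: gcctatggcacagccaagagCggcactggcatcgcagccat
The authors' estimate gave the pseudogene 42.1 TPM in replicate 1 and 52.6 TPM in replicate 2. That is 2.54% of the pair's TPM in replicate 1 and 2.26% in replicate 2, so adding it to Atp6v0c would raise the level by less than the spread between areas. The expected count of Atp6v0c was not whole in either library, as happens when reads are divided between features. In all 8 members had such a count in at least 1 library, and Atp1b1, Atp2b1, Atp6v1g1 and Atp6v1g2 were among them.

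The other V0 subunits were lower than the proteolipids. Atp6v0e2, a small subunit known from brain, had 297.03 TPM in replicate 1 and 374.87 TPM in replicate 2. Its paralog Atp6v0e had 33.98 TPM in replicate 1 and 29.86 TPM in replicate 2. Atp6v0e2 made up 91.2% ± 2.04 (SD, n = 2) of the pair. Atp6v0d1, which couples the ring to the stalk, had 86.84 TPM in replicate 1 against 139.25 TPM in replicate 2, and its paralog Atp6v0d2, known from osteoclasts and other tissues, had 0 counts in both areas.

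The a subunit forms the proton path beside the ring and is known to direct the pump to its membrane. Atp6v0a1, the form known from nerve terminals, had 94.15 TPM in replicate 1 and 69.74 TPM in replicate 2. Atp6v0a2, the Golgi and endosome form, had 8.24 TPM in replicate 1 and 8.60 TPM in replicate 2. Tcirg1, the osteoclast form whose symbol keeps it out of the members, had 4.30 TPM in replicate 1 against 3.11 TPM in replicate 2, and Atp6v0a4, the kidney form, had 0 counts. With Tcirg1 counted, Atp6v0a1 made up 86.9% ± 1.85 (SD, n = 2) of the 4 genes. These levels of Atp6v0a1 include a transcript of 373 bases, and its full-length transcript alone had 39.7 TPM in replicate 1 and 52.5 TPM in replicate 2.

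The V1 sector had 9 of its 14 member genes at 1 TPM or more in both areas. Atp6v1a, the catalytic subunit, had 173.70 TPM in replicate 1 and 224.50 TPM in replicate 2. Atp6v1b2, which alternates with it in the head of the pump, had 286.40 TPM in replicate 1 and 312.32 TPM in replicate 2. The ranges of Atp6v1a and Atp6v1b2 did not overlap, with Atp6v1b2 the higher.

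The central and peripheral stalks carried the highest V1 values. Atp6v1g2 had 975.59 TPM in replicate 1 and 1007 TPM in replicate 2. Atp6v1g1, its widely expressed paralog, had 288.40 TPM in replicate 1 and 302.07 TPM in replicate 2. Atp6v1g2 made up 77.1% ± 0.19 (SD, n = 2) of the G subunits, the smallest spread among the 6 leading paralogs in the plot of paralog shares. Atp6v1e1 had 706.91 TPM in replicate 1 and 798.17 TPM in replicate 2, Atp6v1d had 648.49 and 591.28, and Atp6v1f had 557.06 and 610.43 in the same order. Atp6v1c1, a subunit that takes part in joining the sectors, had 307.76 TPM in replicate 1 and 358.58 TPM in replicate 2. Atp6v1h, which is needed for activity, had 285.16 TPM in replicate 1 and 305.93 TPM in replicate 2.

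The paralogs known from kidney, testis or other tissues were near or at 0. Atp6v1b1, Atp6v1e2 and Atp6v1g3 had 0 counts in both areas, and Atp6v1c2 had 0 in replicate 1 and 2 in replicate 2. Atp6v1fnb, which is in no subunit family, had 0 counts in replicate 1 against 0.16 in replicate 2. For counting error alone, a count of 0 allows a level of up to 0.115 CPM (counts scaled to the library total) in replicate 1 and 0.106 CPM in replicate 2. Of the accessory genes, Atp6ap2, also known as the prorenin receptor, had 363.91 TPM in replicate 1 against 447.43 TPM in replicate 2, and Atp6ap1 had 212.95 and 274.44. Across the pumps 12 members stayed under 1 TPM in both areas, and 7 of those had 0 counts in both.

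**Figure D2:**
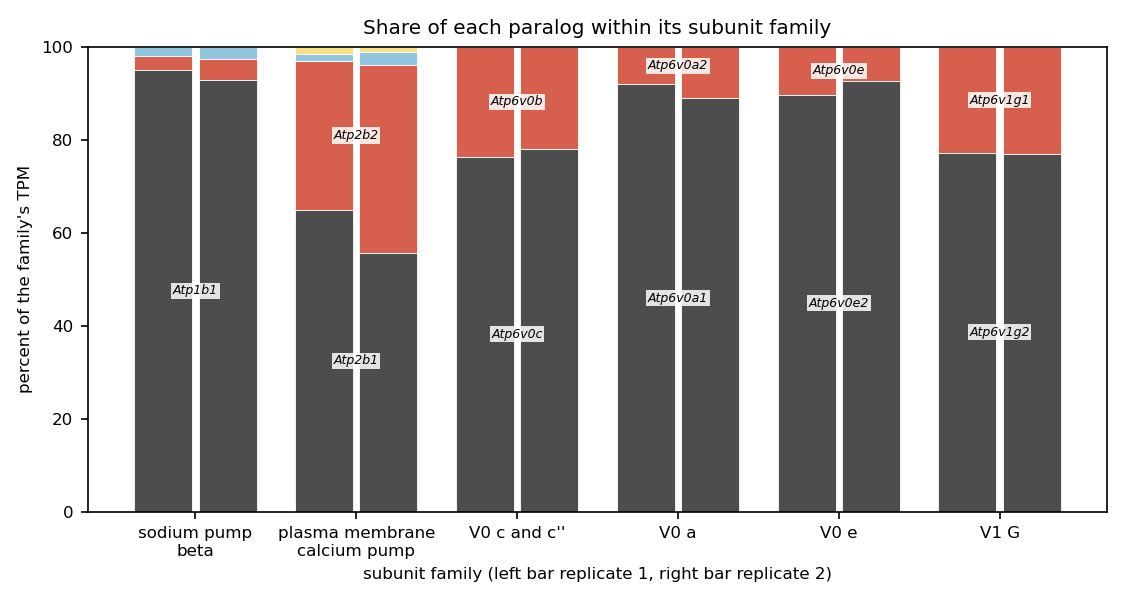
Percent of a subunit family's summed TPM taken by each paralog in 6 families, with replicate 1 in the left bar and replicate 2 in the right bar. The same paralog led each family in both areas, and the lowest leading share was 55.7% for Atp2b1 in replicate 2.

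The size of the differences between the areas was near or above that of all genes. The median absolute log2(TPM + 1) ratio was 0.33 for the members and 0.33 for all protein-coding genes that averaged at least 1 TPM, and it was 0.32 for the members and 0.24 for all genes that averaged at least 20 TPM. Of the 31 members that averaged at least 1 TPM, 1 differed by more than 2-fold on that scale, where the added 1 shrinks the ratios of low genes. Among all protein-coding genes that averaged as much, 10.3% of 11841 did, and 4.98% were higher in replicate 1 by that margin. Among the 27 members that averaged at least 20 TPM none did, against 2.62% of 4422 genes. The member beyond 2-fold was Atp6ap1l, higher in replicate 1, where it had 12.08 TPM against 5.46 TPM in replicate 2. It held 273 counts in replicate 1 and 124 in replicate 2, a ratio of 2.39 after scaling to the library totals (95% exact Clopper-Pearson interval 1.93 to 2.98, counting error only). With posterior mean TPM its log2 ratio was 0.94, which is under 2-fold.

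More pump genes were higher in replicate 2 than in replicate 1. Of the 31 detected members 7 were higher in replicate 1 and 24 in replicate 2, where 54.0% of the 11841 genes were higher in replicate 2. By CPM scaled with TMM factors the split was again 7 and 24, and the share over all genes was 51.5%. The median log2 ratio of replicate 1 over replicate 2 was -0.17 for the members and -0.05 for the 11841 genes. In bulk areas such as these, fewer cells of a type and less RNA per cell cannot be told apart.

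All 6 detected sodium pump genes had less TPM in replicate 1, with a median log2 ratio of -0.39 and a range of -0.57 to -0.03. Atp1b1, at the upper end of that range, changed sign to 0.02 by CPM. The calcium pump genes were split 3 and 3, with a median of 0.08. Atp2b1, Atp2b4 and Atp2c1 were higher in replicate 1, at log2 ratios of 0.41, 0.41 and 0.32. Atp2a2, Atp2b2 and Atp2b3 were lower there, at -0.37, -0.15 and -0.43.

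Of the 19 detected proton pump genes 4 were higher in replicate 1 and 15 in replicate 2, with a median log2 ratio of -0.13. The V0 genes summed to 2636 TPM in replicate 1 against 3542 TPM in replicate 2, and the V1 genes to 4229 and 4510 TPM in the same order. The V0 sum was thus 1.34 times as high in replicate 2 and the V1 sum 1.07 times. Most of the V0 difference came from Atp6v0c, at 1615 TPM in replicate 1 and 2280 TPM in replicate 2. Of the detected V0 genes 2 were higher in replicate 1 and 5 in replicate 2. The lowest ratio of any member was that of Atp6v0d1 at -0.68. With 1 library on each side, none of these differences has a replicate check.

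**Figure D3:**
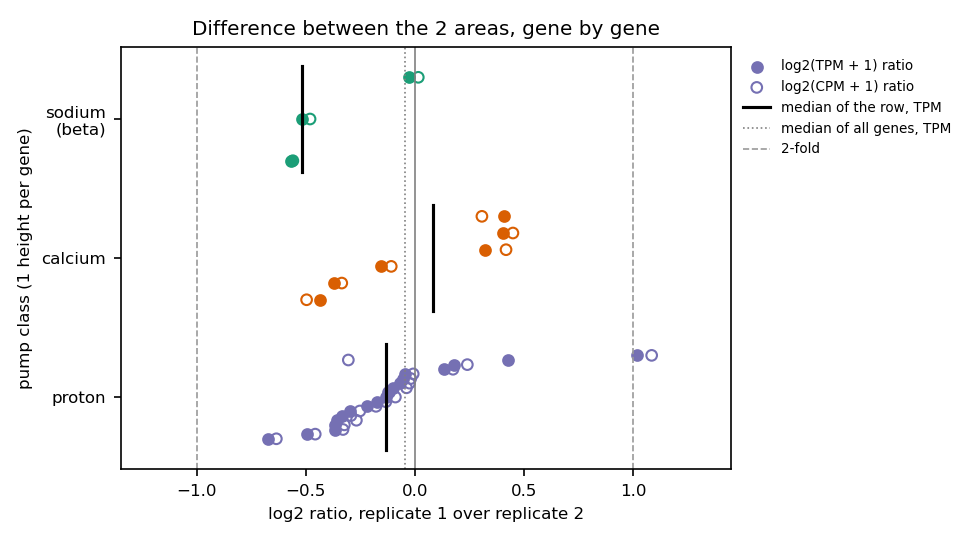
Log2 ratio of replicate 1 over replicate 2 for detected pump genes (beta subunits alone for sodium), with 1 height per gene, filled for TPM and open for CPM, both with 1 added. The beta subunit genes lie left of or near 0, and 1 proton pump gene lies beyond the dashed 2-fold line. Filled and open points lie on opposite sides of 0 for Atp6v0a1 and, close to 0, for Atp1b1.

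Markers shared by all neurons, most excitatory neuron markers and all 10 oligodendrocyte markers were lower in replicate 1. Most sodium and proton pump genes were lower there too. The median log2 ratio of the oligodendrocyte markers was -1.51, while 9 of 10 microglial markers were higher in replicate 1. GABAergic neuron markers were mixed. All 10 pan-neuronal markers were lower in replicate 1, with a median log2 ratio of -0.25, although 1 of them was not by CPM. Their summed TPM was 9099 in replicate 1 and 10692 in replicate 2. Of 8 excitatory neuron markers 1 was higher in replicate 1 and 7 in replicate 2, with a median log2 ratio of -0.31. By CPM that split was 2 and 6. Of the 9 GABAergic neuron markers detected in both areas 4 were higher in replicate 1 and 5 in replicate 2. Sst, a marker of one interneuron class, had 194 TPM in replicate 1 against 2859 TPM in replicate 2, whereas Pvalb, a marker of another, had 918 TPM in replicate 1 against 145 TPM in replicate 2; both were picked after their values were seen. The 10 astrocyte markers summed to 759 TPM in replicate 1 against 859 TPM in replicate 2, and the median ratio of the 9 detected in both areas was -0.03. The part of cell makeup in the pump differences was not tested.

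The direction for Atp6v0a1 depended on how its transcripts were resolved. Its TPM was higher in replicate 1, at a log2 ratio of 0.43. Its expected counts were 3819 in replicate 1 and 5029 in replicate 2, and by CPM its ratio was -0.31. Atp6v0a1-201, the full-length coding transcript of 4008 bases given above, was likewise lower in replicate 1, at a log2 ratio of -0.39. Atp6v0a1-206, a transcript of 373 bases, had 264 counts and 44.9 TPM in replicate 1, against 58.6 counts and 9.61 TPM in replicate 2. The short transcript thus took 47.6% of the gene's TPM in replicate 1 and 13.8% in replicate 2, and the mean length assigned to the gene was 1984 bases in replicate 1 and 3339 bases in replicate 2.

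Most pump genes with several transcripts listed had 1 that held nearly all of the TPM. Of the 27 members that averaged at least 20 TPM, 6 had 1 transcript listed in the tables, which fixes its share in advance. Of the 21 with 2 or more listed, 14 had a leading transcript at 95% or more of the gene's TPM. The remaining 7 had at least 2 transcripts at 5% or more in either area. These were Atp1b2, Atp2a2, Atp2b2, Atp2c1, Atp6v0a1, Atp6v0b and Atp6v1h. Transcripts annotated as protein coding held 98.5% of the TPM of the 27 genes in replicate 1 and 98.2% in replicate 2. Of the 133 transcripts listed for these genes, 6 moved by more than 10 percentage points between the areas.

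**Figure D4:**
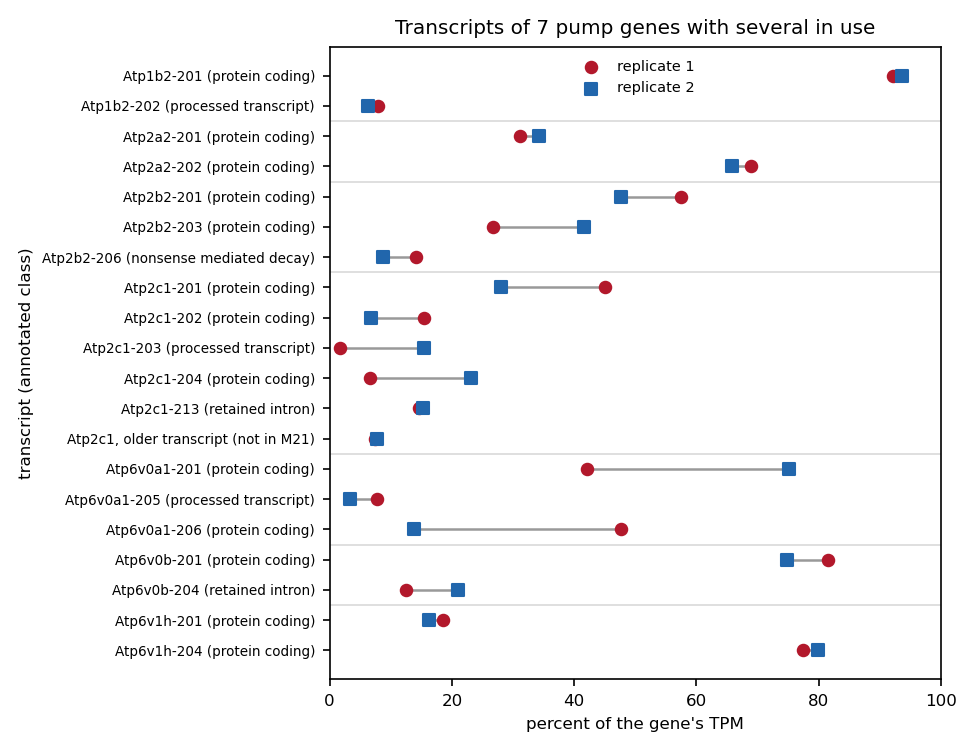
Percent of a gene's TPM held by each transcript at 5% or more in either area, for the 7 genes with several such transcripts. Circles are replicate 1 and squares replicate 2; the transcripts of Atp2a2 and Atp6v1h lie close together between the areas, while those of Atp6v0a1 lie far apart.

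Atp6v1h and Atp2a2 gave shares that were close in the 2 areas. In each gene the 2 main transcripts differ in a defined stretch of coding sequence. Atp6v1h-204 lacks an in-frame exon of 54 bases, or 18 codons, at chr1:5101070-5101123 on the plus strand. It held 77.4% of the gene's TPM in replicate 1 and 79.9% in replicate 2. The transcripts with the exon held 19.0% in replicate 1 and 16.3% in replicate 2. The form without the exon therefore led in both areas, at 78.7% ± 1.80 (SD, n = 2). The exon is printed in capitals between 15 coding bases on either side, from the GENCODE M21 transcript Atp6v1h-201:
Atp6v1h exon: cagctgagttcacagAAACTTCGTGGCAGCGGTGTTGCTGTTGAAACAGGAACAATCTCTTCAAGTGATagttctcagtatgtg
Atp6v1h overlaps Rgs20 on the opposite strand, which had 28.5 TPM in replicate 1 and 26.5 TPM in replicate 2.

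The Atp2a2 transcripts end in different coding tails, which distinguish the reticulum pump known from heart and slow muscle (SERCA2a) from the form known from most other tissues (SERCA2b). The tails show how the coding forms differ, but the shares are of whole transcripts and do not rest on the tails alone. After 15 shared bases, the tail up to the stop codon is in capitals, at chr5:122454294-122454304 for Atp2a2-202 and chr5:122457154-122457302 for Atp2a2-201, both on the minus strand:
Atp2a2-202: acctggaacaacccgCAATACTGGAG
Atp2a2-201: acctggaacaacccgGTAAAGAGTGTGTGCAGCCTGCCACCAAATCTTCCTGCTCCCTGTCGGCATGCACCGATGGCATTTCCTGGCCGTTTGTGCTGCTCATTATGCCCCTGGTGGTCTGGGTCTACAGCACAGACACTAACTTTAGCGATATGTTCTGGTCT
Atp2a2-202, with the short tail of 11 bases, held 68.9% of the gene's TPM in replicate 1 and 65.8% in replicate 2. Atp2a2-201, with the long tail of 149 bases, held 31.1% in replicate 1 and 34.2% in replicate 2. Atp2a2-202 was the higher in both areas by more than their spread. The tables list 3 transcripts of the gene, so reads of any form that was not listed were assigned to these. The tails are those of release M21, in which the 2 transcripts are 3984 and 4486 bases long, against 4314 and 4491 bases in the deposited tables. In that release Atp2a2-203, the other one listed, holds both stretches and has the coding length of Atp2a2-201, 3132 bases. It is 5674 bases long there against 3534 as deposited, and had 0 TPM in both areas. Whether reads of such a long-tailed form were assigned to Atp2a2-202 was not tested.

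Atp2b2 combined 3 transcripts. Atp2b2-201 held 57.4% in replicate 1 and 47.7% in replicate 2, and Atp2b2-203 held 26.6% in replicate 1 and 41.6% in replicate 2. Both have the same coding length of 3594 bases. Atp2b2-206 held 14.2% in replicate 1 and 8.67% in replicate 2. It carries an extra exon of 172 bases at chr6:113755217-113755388 on the minus strand, and 172 is not a multiple of 3, so the reading frame shifts and ends soon after it. Splicing near this end of the plasma membrane calcium pumps is known to change the tail that binds calmodulin. The annotation classes Atp2b2-206 as a target of nonsense-mediated decay, with a coding length of 3462 bases. Whether it is decayed or translated was not tested. The exon is in capitals between 15 upstream and the last 5 downstream coding bases of Atp2b2-206:
Atp2b2 exon: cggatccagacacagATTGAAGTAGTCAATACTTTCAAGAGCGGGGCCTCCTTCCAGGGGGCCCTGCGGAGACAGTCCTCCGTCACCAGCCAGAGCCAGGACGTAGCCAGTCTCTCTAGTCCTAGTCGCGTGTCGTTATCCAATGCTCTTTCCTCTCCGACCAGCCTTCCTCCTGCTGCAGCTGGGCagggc
The share of Atp2b2-206 averaged 11.4% ± 3.90 (SD, n = 2), from 2382 counts in replicate 1 and 1678 in replicate 2.

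The other genes with several transcripts varied more or less between areas. Atp6v0b-204, annotated as retaining an intron, held 12.5% in replicate 1 and 20.9% in replicate 2. Atp1b2-202, annotated as non-coding, held 7.85% in replicate 1 and 6.31% in replicate 2. Atp2c1 was spread over 6 transcripts, of which Atp2c1-201 led in both areas with 45.1% in replicate 1 and 28.03% in replicate 2. Atp2c1-204, of the same coding length of 2754 bases, held 6.59% in replicate 1 and 23.1% in replicate 2. Atp2c1 shares exon bases with Aste1 on the opposite strand, which had 8.91 TPM in replicate 1 and 0.51 TPM in replicate 2.

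Lists of partners were read next, which hold proteins that bind or serve the pumps and also separate transporters. The calcium list includes exchangers of the Slc8 and Slc24 families. The proton list includes Clcn genes and Tcirg1, itself a form of the a subunit. Counts over a list are therefore not counts of pump-binding proteins. Of 11 sodium pump partners 8 reached 1 TPM in both areas, led by Fxyd7, a pump-binding protein known from brain, at 196 TPM in replicate 1 and 330 TPM in replicate 2. Fxyd1, or phospholemman, had 38.8 TPM in replicate 1 and 37.3 TPM in replicate 2. Nkain4 had 23.4 and 26.9 TPM and Fxyd6 had 22.2 and 14.6 TPM in the same order. Fxyd4, Nkain1 and Nkain3 were under 1 TPM in both areas.

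Of the 13 genes of the calcium list that were found, 9 reached 1 TPM in both areas. Bsg and Nptn, which are known to bind plasma membrane calcium pumps, were the highest. Bsg had 680 TPM in replicate 1 against 744 TPM in replicate 2, and Nptn had 613 TPM in replicate 1 and 618 TPM in replicate 2. Slc24a2, a neuronal calcium exchanger, had 78.6 TPM in replicate 1 against 114 TPM in replicate 2, and Slc24a5 had 23.6 and 24.4. Sln and Mrln, known as small inhibitors of the muscle reticulum pump, and Slc8b1 were under 1 TPM in both.

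Of 17 genes of the proton list 16 reached 1 TPM in both areas and none were under it in both. Rnasek, a small protein bound to the pump, had 1088 TPM in replicate 1 and 1065 TPM in replicate 2. Rogdi, part of a complex that helps join the sectors, had 236 TPM in replicate 1 and 232 TPM in replicate 2. Oxr1 had 134 and 176 TPM and Tmem199, an assembly factor, had 90.1 and 106 TPM in the same order. These levels lay within the range of the pump subunits themselves.

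Of 10 other P-type pump genes looked up, 4 were at 1 TPM or more in both areas. The list held Atp4, Atp7, Atp12 and Atp13 genes alone, so it does not cover all other P-type pumps. Atp13a2, a lysosomal polyamine transporter, had 18.95 TPM in replicate 1 and 22.19 TPM in replicate 2. Atp13a1 had 6.19 and 5.20 TPM, Atp13a3 had 6.29 and 4.67 TPM and Atp13a4 had 2.57 and 4.92 TPM in the same order. The proton-potassium pump genes Atp4a, Atp4b and Atp12a and the copper pump gene Atp7b were under 1 TPM in both areas.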

How the data were processed

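The deposited gene and transcript tables gave expected counts, TPM and a posterior mean TPM, and the deposited transcript tables gave each transcript's percent of its gene. TPM was scaled by the authors over all features, spike-ins included. Reads were mapped to mm10 with annotation M4, per the text files deposited beside the tables. Which program, aligner and strand setting were used is not given in the sources used here.

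Symbols, classes, positions and sequences came from GENCODE M21 of GRCm38. Of 43346 Ensembl rows 42462 had a symbol. The libraries differed beyond sampling noise and were kept apart (chi-square 69.5 per degree of freedom, 14131 features). Expected counts were rounded for edgeR 4.0.16 TMM factors (R 4.3.3), used for CPM in an alternative. Other steps used Python 3.11.15 with pandas 2.3.3, numpy 2.4.6, scipy 1.17.1 and matplotlib 3.10.9. The fold intervals were tried on counts simulated with counting error alone. That trial lacked the wider spread seen between the libraries and cannot show that the intervals cover it. Ratios were replicate 1 over replicate 2 of log2(TPM + 1), and no p-value was computed. Counts were called whole within 0.005, which held for 35 members in both libraries. Without molecular identifiers, intervals and floors describe counting error alone. Of the members 15 share exon bases with another gene, 2 of them on the same strand. One of the listed partners, Strit1, was not matched.

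Members were named by class, though some are not reported here, with up to 4 partners of each list by mean TPM and those under 1 TPM in both areas. Transcripts were named for members at a mean of 20 TPM or more. Tcirg1 and overlapping genes were named beside members. Members and lists were chosen with earlier results of these data known. Alternatives were a pseudocount of 0.1, minimums of 5 and 20 TPM, no minimum, CPM, nuclear TPM, posterior means, all members and each area alone.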

Additional observations from a re-analysis of the deposited data

How the results depend on the processing

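The count of members at 1 TPM in both areas was 31, was 30 at a minimum of 5 TPM, and stayed 31 with the other alternatives run, each area alone included. The count beyond 2-fold was 1, and was 0 with a minimum mean of 20 TPM, which leaves fewer genes, and 0 with posterior mean TPM. The class medians kept their sign under all alternatives run for them, centring on the median gene among them, which like the sum of Atp6v0c and its pseudogene was chosen after seeing the data. With expected counts in place of TPM, which leaves transcript length uncorrected, the share of Atp6v1g2 was 82.2%. With each area alone the share of Atp2b1 lay between 55.7% and 65.0% and that of Atp6v1g2 between 76.9% and 77.2%. The transcript shares lay between 65.8% and 68.9% for Atp2a2-202, 8.67% and 14.2% for Atp2b2-206 and 77.4% and 79.9% for Atp6v1h-204. The level of Atp6v0a1 averaged 81.9 TPM, and 46.1 TPM from its full-length transcript alone. Its ratio reversed to -0.31 by CPM and to -0.39 with its full-length transcript alone, also chosen after seeing the data. Of 31 directions 29 were the same in TPM, CPM, nuclear TPM and posterior means, and Atp1b1 and Atp6v0a1 changed. No paired analysis was possible because there is 1 group and the result comes from no test. With 2 areas the smallest p that an exact sign-flip test allows is 0.5 (two-sided).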
